A study of Mus musculus with 16 samples.

Results

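The mitochondrial ribosomal proteins were followed at the RNA level in the left ventricle of male and female mice after pressure overload. The members are all genes whose symbol starts with Mrpl (large subunit) or Mrps (small subunit) and that have a probe set assigned to that symbol alone by the array's annotation. This gave 74 genes on 127 probe sets, 47 with Mrpl and 27 with Mrps symbols, out of 12393 genes with such a probe set. Each gene is described by its brightest probe set, and all 74 of these, with 112 of the 127 probe sets, passed the filter on dim signals. The RefSeq annotation lists 78 protein-coding genes with these names. Of the other 4, Mrpl30 and Mrpl53 lie on probe sets shared with another gene, and Mrps10 and Mrps27 were not measured by a probe set of their own.

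Mitochondria keep a ribosome of their own, which translates the few proteins encoded in mitochondrial DNA, all of them core subunits of the respiratory chain or of the ATP synthase. Its ribosomal RNAs come from mitochondrial DNA, while its proteins are encoded in the nucleus, made in the cytosol and imported. The large subunit joins amino acids and the small subunit reads the messenger RNA. Some proteins have a counterpart in the bacterial ribosome and others occur in mitochondria alone. Heart muscle, which lives on oxidative phosphorylation, depends on this machinery, and inherited defects of several of its proteins cause cardiomyopathy.

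The animals were C57BL/6J mice of 12 to 14 weeks with no genetic change named in the labels. They underwent transverse aortic constriction (TAC), a banding of the aortic arch that raises the pressure load on the left ventricle, or a sham operation, and left ventricular RNA was taken 14 days later. Males and females of either operation made up 4 groups, each with 4 arrays from single animals, and the series asks whether the early response depends on sex. The values are signal intensities on a linear scale that had been scaled to a common trimmed mean. Tests were made with limma on log2(signal + 16), and "rose", "fell" and "called" refer to an adjusted p below 0.05 over all 13576 probe sets tested. Adjusted p values judge a difference of groups against the spread between arrays of the same group.

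Median signals of the arrays lay between 189.7 and 222.3. Measures of RNA quality moved with the operation. The ratio of the Gapdh 3′ to 5′ control signals was 0.837 to 0.921 in male sham and 1.004 to 1.164 in male TAC, and 0.785 to 0.918 in female sham and 0.958 to 1.026 in female TAC, so that sham and TAC did not overlap. The log2 signal of the 18S rRNA 5′ control averaged 13.35 ± 0.50 (SD, n = 4) in male sham, 10.3 ± 1.91 in male TAC, 11.9 ± 0.92 in female sham and 10.2 ± 0.61 in female TAC. One male TAC array, number 5, read 13.159 and stood with the male sham arrays. The signals of 10 cardiomyocyte markers summed to 361202 to 434467 in male sham against 298265 to 362798 in male TAC, and to 372505 to 403569 in female sham against 260864 to 332202 in female TAC. Sums over 7 fibroblast markers were 14993 to 17105 and 18516 to 30438 in males and 16368 to 18580 and 17361 to 24281 in females, again sham before TAC. Those over 6 macrophage markers were 5745 to 7746 and 9047 to 9678 in males and 6121 to 6901 and 7435 to 11068 in females. In the averaged comparison 9 of 10 cardiomyocyte markers were called lower, and 3 of 7 fibroblast and 4 of 6 macrophage markers higher. In females alone 2 of 7 fibroblast markers were called higher and 4 had a negative difference, with a median of -0.13. Of 6 endothelial markers 0 were called averaged, and all 6 had a negative difference. Of 3 tested smooth muscle markers 1 was called higher averaged, and in females 1 was called lower. The atrial markers Myl7 and Sln, all 4 skeletal muscle markers and the 2 measured adipocyte markers lay below the filter limit, and the atrial light chain Myl4 rose by 1.19 ± 0.24 (adjusted p = 0.000693). The part of these shifts in the results below was not tested, and in bulk tissue fewer cells of a type cannot be told apart from less RNA per cell.

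Single members of the ribosome went in opposite directions, and the median member lay near 0. Averaged over the sexes, 18 of 74 members (24.3%) passed the test, against 28.7% of all probe sets. There were 12 that rose (16.2%, against 12.9% of all probe sets) and 6 that fell (8.11%, against 15.8%). Over all 8272 genes taken with 1 probe set each, as the members are, 26.5% passed, 13.4% higher and 13.1% lower. The median log2 difference, TAC minus sham, was -0.03 over the members and -0.03 over all probe sets, and that of the members took the other sign, 0.02, when arrays were centred on their medians, so no direction is read from it. The quartiles were -0.16 and 0.15 over the members, and -0.23 and 0.22 over all genes taken with 1 probe set each. Only 3 members (4.1%) differed by more than 0.5, namely Mrpl20, Mrps34 and Mrpl50, against 16.5% of all genes. The members were not matched to other genes in signal level, so neither this share nor the quartiles are read as a trait of the members. With the Gapdh ratio as a covariate 2 members passed, both lower, and with the 18S signal 7 passed, of which 5 were higher. The surplus of rises over falls varied with the setting. Under quantile normalization 8 rose and 6 fell, without the intensity trend 8 and 7, and under median centring 13 and 5. Leaving out male TAC 4 or female TAC 5 gave 8 and 6.

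**Figure D1:**
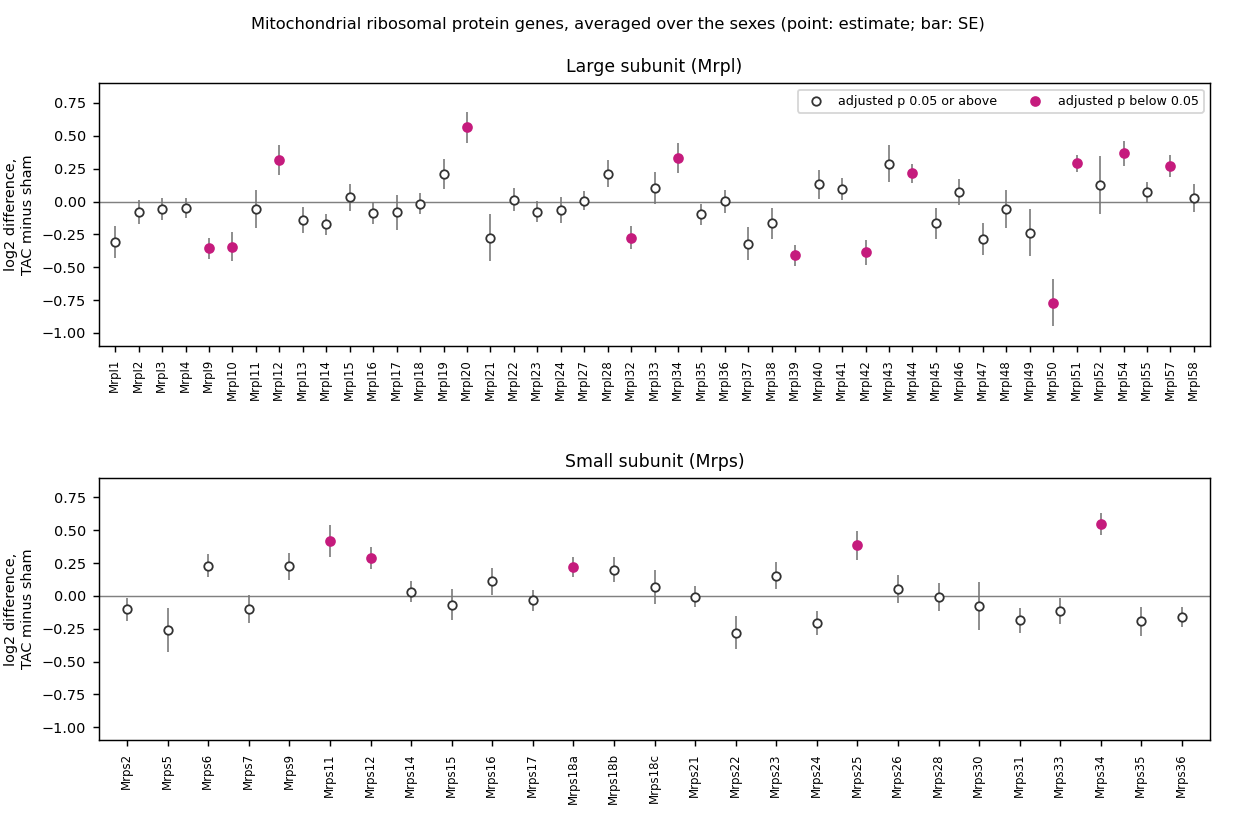
Log2 difference of TAC minus sham, averaged over the sexes, for each of the 47 genes with Mrpl symbols (top) and the 27 with Mrps symbols (bottom); points are estimates, bars are SE, and filled points passed an adjusted p of 0.05. The 12 members that rose carry Mrpl and Mrps symbols, and the 6 that fell, led by Mrpl50 at -0.77, carry Mrpl symbols. Subunits are assigned by symbol, and the small-subunit proteins Dap3 and Ptcd3, which have other names and fell, are not drawn.

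Of the 47 members with Mrpl symbols 7 rose (14.9%) and 6 fell (12.8%), close to the 13.4% and 13.1% of all genes taken with 1 probe set each. Of the 27 with Mrps symbols 5 rose (18.5%) and 0 fell. The difference between these counts was not tested. The symbols are not an exact guide to the subunits: the proteins of Mrps18a, 1 of the 5 that rose, and of Mrps30 lie in the large subunit, and Mrps36 is a subunit of a metabolic enzyme. Small-subunit proteins with other names are not among the 27, and of these Dap3 and Ptcd3 fell, as did Mrps2 on a second probe set. The count of 0 Mrps members falling also stood under quantile normalization and under median centring. It became 1 without the array male sham 3 (Mrps24), without female sham 1 (Mrps22), with the Gapdh ratio (Mrps22) and with the 18S signal (Mrps5). At an unadjusted p below 0.05, 27 members of both subunits passed (36.5%), against 38.9% of all probe sets.

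A score for each array, the mean over a subunit's genes of the log2 deviation from the 16-array mean, showed no separation of the groups. Subunits are assigned by symbol here, so Mrps18a, Mrps30 and Mrps36 count in the small-subunit score. The large-subunit score averaged 0.03 ± 0.04 (SD, n = 4) in male sham and 0.00 ± 0.07 in male TAC, and 0.01 ± 0.05 in female sham and -0.04 ± 0.06 in female TAC. The small-subunit score averaged 0.00 ± 0.06 and 0.03 ± 0.08 in males and -0.04 ± 0.04 and 0.01 ± 0.02 in females. Sham and TAC overlapped in both sexes for both subunits.

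**Figure D2:**
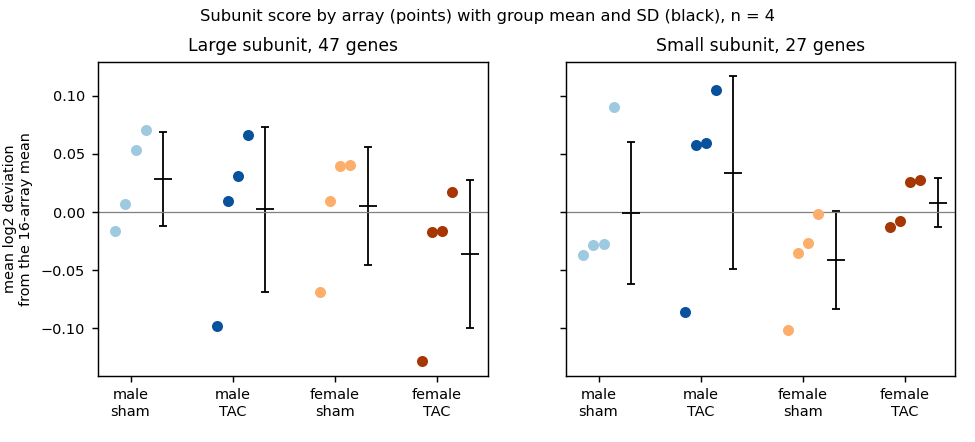
Mean log2 deviation from the 16-array mean over the 47 genes with Mrpl symbols (large subunit) and the 27 with Mrps symbols (small subunit). Each point is 1 array, with group mean and SD in black. All 4 groups overlap around 0, with the lowest large-subunit value, -0.13, in female TAC.

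Among the large-subunit members with a bacterial counterpart, Mrpl20 had the largest rise. Its protein binds ribosomal RNA and helps the large subunit to assemble. Its signal was 1591.6, 1159.2, 1097.5 and 1288.3 in male sham and 1559.5, 2192.2, 1852.8 and 2155.5 in male TAC. In females it was 910.5, 1290.4, 1311.8 and 1216.3 in sham and 1388.9, 1487.2, 2285.3 and 1790.5 in TAC. Every TAC array of the females lay above every sham array, and in males 1 sham array, number 1, lay within the TAC range. The log2 difference was 0.59 ± 0.17 (SE, adjusted p = 0.018) in males, 0.54 ± 0.17 (adjusted p = 0.0349) in females and 0.56 ± 0.12 (adjusted p = 0.00113) averaged, a 1.48-fold rise. The averaged call held when any single array was left out. Each single-sex call was lost when 1 of 4 arrays was left out, at an adjusted p of up to 0.0633 in males (without male sham 3) and 0.129 in females (without female TAC 3).

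Mrpl9 and Mrpl32 fell. Mrpl9, whose bacterial counterpart reaches out from the base of a ribosomal stalk, read 1234.2, 1250, 1004.1 and 1172.8 in male sham and 947.6, 914.7, 1002.6 and 936.8 in male TAC. In females it read 1056.4, 1315.1, 1182.2 and 1181.7 in sham and 884.3, 867.9, 797.7 and 948.8 in TAC. Sham and TAC did not overlap in either sex. The averaged log2 difference was -0.36 ± 0.08 (adjusted p = 0.00217), with -0.43 ± 0.11 in females (adjusted p = 0.0142) and -0.29 ± 0.11 in males (adjusted p = 0.093). The female call was lost without female sham 2 (adjusted p = 0.0513). Mrpl32, whose protein is cleaved by a mitochondrial protease before it joins the ribosome, fell in females from 1420.7 to 1758.8 in sham to 1005.1 to 1252.5 in TAC without overlap. Its log2 difference was -0.46 ± 0.12 in females (adjusted p = 0.0126), -0.09 ± 0.12 in males (adjusted p = 0.677) and -0.27 ± 0.08 averaged (adjusted p = 0.0194).

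The proteins of the stalk that recruits translation factors went opposite ways. Mrpl10, its anchor on the ribosome, read 1304.4, 1295.4, 1409.8 and 1995.9 in female sham and 865.3, 1109.8, 775.6 and 1122.3 in female TAC. The female groups did not overlap, with a log2 difference of -0.62 ± 0.16 (adjusted p = 0.0105), and the difference was -0.07 ± 0.16 in males (adjusted p = 0.811). Averaged, it was -0.34 ± 0.11 (adjusted p = 0.0242), a call lost without female TAC 3 (0.0537), without male sham 4 (0.0527) and without female sham 4 (0.0569). Mrpl12, which forms the stalk's mobile part and also binds the mitochondrial RNA polymerase, rose by 0.32 ± 0.12 averaged (adjusted p = 0.0456). It read 1893.2 to 3125.8 in male sham, 2798.9 to 3585.2 in male TAC, 2412.7 to 2897 in female sham and 2574.4 to 4560.2 in female TAC. The groups overlapped in both sexes, and the call was lost when any 1 of 10 arrays was left out, at an adjusted p of up to 0.102.

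Mrpl34 rose in males and averaged over the sexes, and Mrpl1 fell in males. Mrpl34 encodes one of the smallest large-subunit proteins and read 1026.2, 1441, 973.2 and 1358.6 in male sham and 1879.9, 1760.9, 1724.3 and 1338.1 in male TAC. One TAC array lay within the sham range, and the difference was 0.49 ± 0.17 in males (adjusted p = 0.0468), 0.18 ± 0.17 in females (adjusted p = 0.541) and 0.33 ± 0.12 averaged (adjusted p = 0.039). With the Gapdh ratio as a covariate it took the other sign, -0.06 in males and -0.13 averaged, and 5 of 8 arrays in males and 9 of 16 averaged ended the call when left out singly (adjusted p up to 0.154 and 0.0869). Both calls of Mrpl34 were also lost under quantile normalization, without the filter, without the intensity trend, with a replicate block and with the 18S signal. Mrpl1, whose bacterial counterpart sits beside the exit for transfer RNA, read 361.8 to 516.6 in male sham and 255.4 to 289.8 in male TAC. These ranges did not overlap, with a difference of -0.59 ± 0.17 (adjusted p = 0.0205, and 0.0733 without male sham 2). In females sham and TAC overlapped at 272.3 to 372.9 and 256.7 to 377.2, with a difference of -0.02 ± 0.17.

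Among the large-subunit proteins that occur in mitochondria alone, Mrpl39 fell in both sexes. It read 7331.8, 6204.3, 7801.2 and 7534.1 in male sham and 6227.7, 4470.6, 5574.1 and 5271.4 in male TAC. In females it read 8311.4, 6803.6, 7060.1 and 7579.3 in sham and 6271.9, 5371.9, 4956.5 and 6142.2 in TAC. The female groups did not overlap, and in males 1 TAC array exceeded the lowest sham array. The log2 difference was -0.43 ± 0.11 in males (adjusted p = 0.0124), -0.39 ± 0.11 in females (adjusted p = 0.0245) and -0.41 ± 0.08 averaged (adjusted p = 0.000642), 1.33-fold lower. The averaged call held without any single array. The male call was lost without male TAC 2 (adjusted p = 0.0557) and the female call when 1 of 4 arrays was left out, at an adjusted p of up to 0.0825 without female TAC 3.

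Mrpl42 and Mrpl50, also of the mitochondria-specific kind, fell averaged over the sexes and in males. Mrpl42 read 11349.6, 10024.9, 10369.2 and 11740.1 in male sham and 7791.1, 6134.2, 9885.8 and 8897 in male TAC, without overlap. Its averaged difference was -0.39 ± 0.10 (adjusted p = 0.00478), with -0.43 ± 0.14 in males (adjusted p = 0.0348, a call lost when 1 of 5 arrays was left out, with 0.143 without male TAC 2) and -0.35 ± 0.14 in females (adjusted p = 0.0988). Mrpl50 read 1323.8, 1407.2, 1561.9 and 1277.5 in male sham and 874.8, 470.6, 628.6 and 818.8 in male TAC. That was the largest change of any member in 1 sex, -1.02 ± 0.25 (adjusted p = 0.00745), or 2.02-fold lower. In female sham it read 577 to 1448 and in female TAC 551.5 to 1128.8, which overlapped, with a difference of -0.52 ± 0.25 (adjusted p = 0.178). The averaged difference was -0.77 ± 0.18 (adjusted p = 0.00253). Both calls of Mrpl50 held without any single array and with the Gapdh ratio, and were lost once the 18S signal entered the fit (adjusted p = 0.271 in males and 0.221 averaged).

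Of the same kind, 4 members rose: Mrpl51, Mrpl54, Mrpl44 and Mrpl57. Mrpl51 read 5875.3, 5708.8, 4806.1 and 4953.7 in male sham and 6881.4, 6155, 5969.3 and 6487.8 in male TAC. In females it read 4998.3, 4904, 5328.1 and 5501.5 in sham and 6581, 6538.8, 6147.8 and 6701.2 in TAC, and in neither sex did the groups overlap. The averaged difference was 0.29 ± 0.06 (adjusted p = 0.0016), with 0.32 ± 0.09 in females (adjusted p = 0.0181, and 0.0544 without female sham 2) and 0.26 ± 0.09 in males (adjusted p = 0.052). Mrpl54 rose in males, from 585 to 720.8 in sham to 735.3 to 939.8 in TAC without overlap, by 0.45 ± 0.13 (adjusted p = 0.0238), and averaged by 0.37 ± 0.10 (adjusted p = 0.00615). The male call of Mrpl54 was lost when 1 of 5 arrays was left out, at an adjusted p of up to 0.0665. Mrpl44, a protein related to RNase III whose loss of function causes a human infantile cardiomyopathy, rose averaged by 0.22 ± 0.07 (adjusted p = 0.0313), with female sham at 2087.2 to 2532.2 and female TAC at 2698.3 to 2820.1, and 7 of 16 arrays ended the call when left out singly (up to 0.0727). Mrpl57 rose averaged by 0.27 ± 0.08 (adjusted p = 0.0204, and 0.0503 without male sham 3). Mrpl37 fell in females by 0.58 on the log2 scale (SE 0.18, adjusted p = 0.0355), from 455.7 to 589.2 in sham to 312.4 to 406.7 in TAC without overlap. That call was lost when 1 of 6 arrays was left out, at an adjusted p of up to 0.0984, and the difference was -0.06 ± 0.18 in males.

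By kind, 3 of the 27 large-subunit members with a bacterial counterpart rose and 3 fell in the averaged comparison, and of the 20 mitochondria-specific members 4 rose and 3 fell. Among the Mrps members, 3 of 15 with a bacterial counterpart and 2 of 12 mitochondria-specific ones rose, and 0 of either fell. The shares that rose were 11.1%, 20%, 20% and 16.7% in this order, against 13.4% of all genes, and the shares that fell among the Mrpl members were 11.1% and 15%, against 13.1%. With classes this small 1 gene moves a share by several percentage points, and the classes were not tested against all genes. The kind is assigned by the number in the symbol alone, so single members may be misplaced. Mrps30 and Mrps36, with the limits given above, count among the 12.

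Mrps34 had the smallest p of all members. It is a mitochondria-specific small-subunit protein, and its loss destabilises the small subunit. It read 2485.8, 2701.5, 2172.8 and 3219.3 in male sham and 3690.7, 3564.7, 3810.5 and 4041.5 in male TAC. In females it read 2290.3, 2255.4, 2436.9 and 2467.3 in sham and 3345.2, 3151.5, 4317 and 3304.9 in TAC. The groups did not overlap in either sex. The log2 difference was 0.52 ± 0.12 in males (adjusted p = 0.00427), 0.57 ± 0.12 in females (adjusted p = 0.00285) and 0.55 ± 0.08 averaged (adjusted p = 5.9e-05), a 1.46-fold rise. All 3 calls held without any single array and with the 18S signal as a covariate, and all were lost with the Gapdh ratio (adjusted p = 0.0885 averaged). The averaged difference was 0.49 to 0.62 over all settings run. Sham and TAC did not overlap in the Gapdh ratio, so the fit with it can hardly tell operation and ratio apart.

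**Figure D3:**
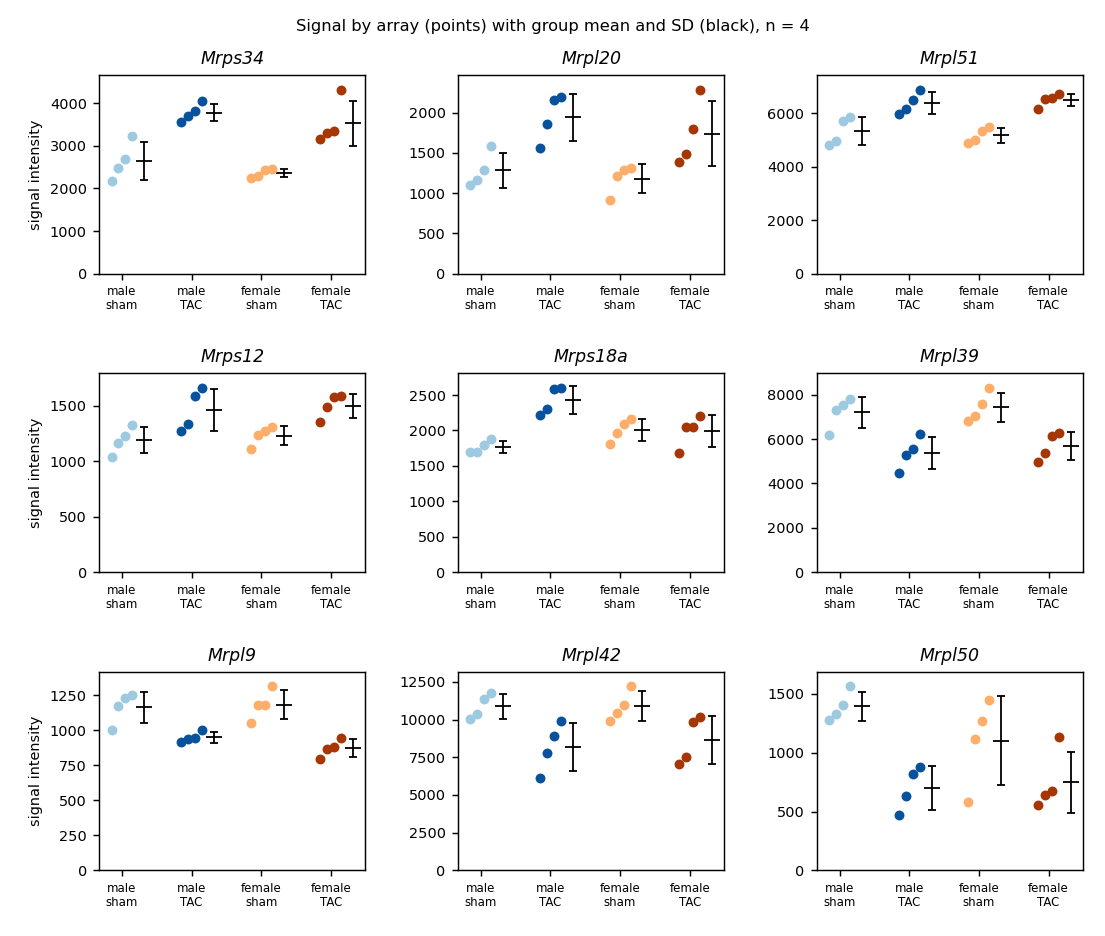
Signal intensity (linear scale, axes from 0) of 9 members on each of the 16 arrays, with group mean and SD in black. Mrps34, Mrpl20, Mrpl51, Mrps12 and Mrps18a rose and Mrpl39, Mrpl9, Mrpl42 and Mrpl50 fell in the averaged comparison. Mrps18a is higher in male TAC alone, and its female groups lie together at 1679.9 to 2205.4.

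Mrps12 and Mrps11, which line the path of the messenger RNA, rose, as did Mrps25. Mrps12, the protein at the decoding site whose bacterial counterpart is the target of streptomycin resistance mutations, read 1039.1, 1224.3, 1162.7 and 1320.2 in male sham and 1330.7, 1273.3, 1657.9 and 1583.3 in male TAC. In females it read 1232.2, 1269.3, 1308.2 and 1107 in sham and 1574.6, 1349.8, 1486.4 and 1584.1 in TAC, without overlap. In males 1 TAC array lay below the highest sham array. The averaged difference of Mrps12 was 0.29 ± 0.08 (adjusted p = 0.0133), with 0.29 ± 0.12 in males and 0.28 ± 0.12 in females, neither of which passed alone. Mrps11 rose in females from 339.8 to 458 in sham to 550.6 to 833.1 in TAC, by 0.63 ± 0.17 (adjusted p = 0.0157), and averaged by 0.42 ± 0.12 (adjusted p = 0.0132). Its female call was lost without female TAC 3 (0.0636) and without female sham 1 (0.0557), and in males the difference was 0.20 ± 0.17. Mrps25 rose in females from 419.8 to 629.5 in sham to 705.3 to 847.3 in TAC, by 0.57 ± 0.16 (adjusted p = 0.0195), and averaged by 0.39 ± 0.11 (adjusted p = 0.0134). Its female call was lost without female TAC 2 (0.0596), female sham 1 (0.0698) or female sham 2 (0.0509).

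The symbols Mrps18a, Mrps18b and Mrps18c share a number because their proteins descend from 1 bacterial protein, and their transcripts did not move alike. Mrps18a, whose protein is found in the large subunit despite its name, read 1881.1, 1700.5, 1690.9 and 1794.3 in male sham and 2587.9, 2308.5, 2599.7 and 2213.4 in male TAC. The male groups did not overlap, and the difference was 0.45 ± 0.11 (adjusted p = 0.00571). In females sham and TAC overlapped and the difference was -0.01 ± 0.11 (adjusted p = 0.956). The averaged call of Mrps18a, 0.22 ± 0.08 (adjusted p = 0.0351), was lost when any 1 of 9 arrays was left out, at an adjusted p of up to 0.0754, and the male call was not lost by leaving out any. Mrps18b and Mrps18c differed by 0.20 ± 0.09 (adjusted p = 0.121) and 0.07 ± 0.13 (adjusted p = 0.733) averaged. Mrps30, another large-subunit protein by structure, differed by -0.08 ± 0.18 (adjusted p = 0.794). Mrps36, now known as a subunit of the 2-oxoglutarate dehydrogenase complex, differed by -0.16 ± 0.08 (adjusted p = 0.137). Mrpl41 differed by 0.10 ± 0.08 (adjusted p = 0.415) on its brightest probe set.

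The members not named above stayed within narrower limits in the averaged comparison. The brightest large-subunit probe sets over all arrays were those of Mrpl42, Mrpl39 and Mrpl51, and the dimmest those of Mrpl49, Mrpl37 and Mrpl1. Of the Mrps symbols the brightest were Mrps34, Mrps36 and Mrps16 and the dimmest Mrps11, Mrps30 and Mrps5. This order reflects the probes as well as the transcripts, so no level is set against another. Mrps16 differed by 0.11 ± 0.10, Mrpl49 by -0.24 ± 0.18 and Mrps5 by -0.26 ± 0.17, and none of these passed the test (adjusted p = 0.452, 0.348 and 0.277).

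The responses of the sexes were set side by side. In males 9 members passed (12.2%, against 17.8% of all probe sets), 5 higher (against 8.07%) and 4 lower (against 9.77%). In females 10 passed (13.5%, against 15.1%), 5 higher (against 6.46%) and 5 lower (against 8.6%). Over all genes taken with 1 probe set each the shares were 15.9% in males, with 8.1% higher and 7.77% lower, and 13.1% in females, with 6.37% higher and 6.69% lower. The members' 6.76% higher and 6.76% lower in females lay close to these. Sham and TAC did not overlap for 10 members in males (13.5%, against 19.6%) and for 16 in females (21.6%, against 19.9%). The count in males became 4 without male TAC 2 and 5 without male sham 3, and that in females became 6 without female TAC 3 or without female sham 1. With the 18S signal as a covariate the counts were 2 in males and 6 in females, and with the Gapdh ratio 2 and 0.

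The genes passing in both sexes were Mrpl20, Mrps34 and Mrpl39. Passing in males and not in females were Mrpl34, Mrpl54, Mrps18a, Mrpl1, Mrpl42 and Mrpl50, and the reverse held for Mrpl51, Mrps11, Mrps25, Mrpl9, Mrpl10, Mrpl32 and Mrpl37. Such lists do not show that the sexes differed. Tested directly, the response of females differed from that of males in the limma fit for 0 of 74 members, and for 0% of all probe sets. At an unadjusted p below 0.05, 5 members passed (6.8%), against 6.6% of all probe sets, and the count of called members was 0 under all the alternatives run. The smallest p values belonged to Mrps18a (-0.47 ± 0.15, adjusted p = 0.62), Mrpl10 (-0.55 ± 0.22, adjusted p = 0.686) and Mrpl27 (-0.36 ± 0.15, adjusted p = 0.729). Mrpl27, a protein near the site of peptide bond formation, read 2239.1 to 2635.2 in male sham and 2562.5 to 3067.2 in male TAC, and 2681.4 to 2944.5 in female sham and 2122.7 to 2908.9 in female TAC.

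**Figure D4:**
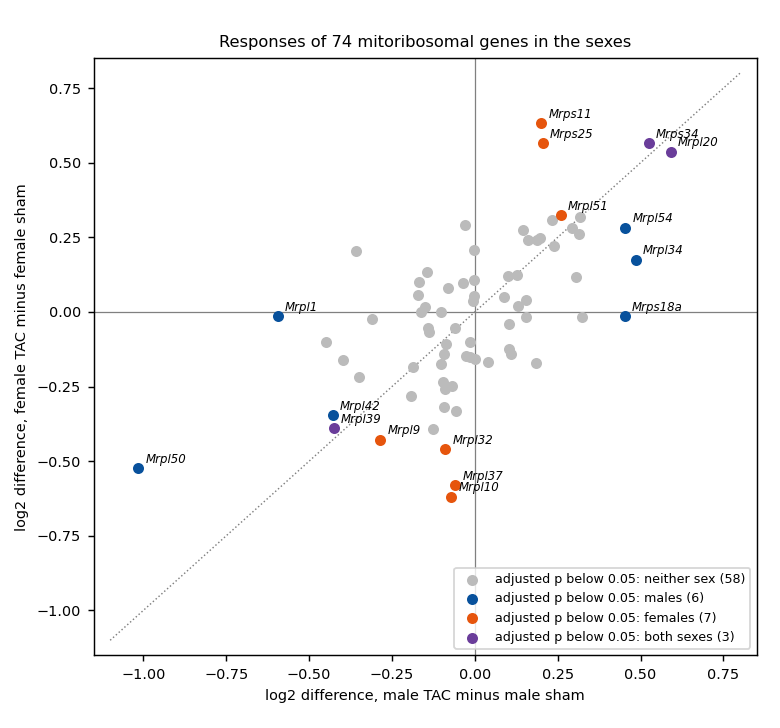
Log2 difference of TAC minus sham in males (horizontal) and in females (vertical) for the 74 members, coloured by the sex in which the adjusted p was below 0.05; the dotted line marks equal responses. Mrpl20 and Mrps34 at the upper right and Mrpl39 at the lower left passed in both sexes, and 58 members passed in neither.

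Across the members the log2 differences of the sexes, which come from different arrays, correlated at r = 0.615 (Spearman 0.623, n = 74 genes), and over all probe sets at 0.666. The members share arrays within a sex, and genes are not independent replicates. The sign was the same in both sexes for 51 of 74.

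Between females and males, 0 of 74 members passed the limma test within sham (against 0.309% of all probe sets) and 0 within TAC (against 0.0663%). At an unadjusted p below 0.05 there were 4 in sham (5.4%, against 10.5%) and 3 in TAC (4.1%, against 6.4%). The smallest p values within sham belonged to Mrpl40, Mrpl21 and Mrpl1, all lower in females. Mrpl40, which lies in the chromosomal region deleted in DiGeorge syndrome in humans, read 638.8, 883.8, 842.5 and 692 in male sham and 609, 488.2, 578.6 and 593.2 in female sham. These did not overlap, and the difference was -0.41 ± 0.15 (adjusted p = 0.331). Mrpl21 differed by -0.61 ± 0.25 (adjusted p = 0.395) and Mrpl1 by -0.41 ± 0.17 (adjusted p = 0.406).

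Other probe sets of the same genes gave a mixed picture. Of the 29 members with more than 1 probe set above the filter, 14 had all of them on the same side of 0. Of the 18 members called in the averaged comparison, 7 had such a second measure, and in 3 of these, Mrpl9, Mrpl39 and Mrpl50, it had the same sign. The second probe set of Mrpl9 showed a larger fall (-0.80 ± 0.11, adjusted p = 2.3e-05), and that of Mrpl39 a like one (-0.49 ± 0.09, adjusted p = 0.000544). That of Mrpl50 differed by -0.12 ± 0.17 (adjusted p = 0.652), so the 2.02-fold fall rests on 1 of 2 probe sets. For Mrpl51 the dimmer probe set fell (-0.41 ± 0.13, adjusted p = 0.0223) where the brighter one rose. The dimmer probe set of Mrpl57 differed by -0.13 ± 0.17, that of Mrps25 by 0.00 ± 0.19, and the other 2 of Mrpl44 by 0.15 ± 0.09 and -0.08 ± 0.11. Conversely, 4 members not called on the brightest probe set passed on another: Mrpl13 rose by 0.35 ± 0.09, Mrpl41 by 0.37 ± 0.09 and Mrpl52 by 0.37 ± 0.11, and Mrps2 fell by 0.67 on the log2 scale (SE 0.17). Counting all 112 probe sets, 25 passed, 15 higher and 10 lower. Per the RefSeq annotation, Mrpl44, Mrpl57, Mrps18a, Mrps25 and Mrpl37 overlap another protein-coding gene (Wdfy1, Ska3, Rsph9, Nr2c2 and Cyb5rl).

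The promoters of the members were read for short motifs known from genes of the mitochondria: the core of the site for NRF1, a factor that drives many nuclear genes for mitochondria (CGCATGCG), the core of sites for ETS factors such as GABPA (CCGGAAG), and the core of the site for YY1 (AAGATGGC). Both strands were searched in the 250 bases before and the 50 after each start in RefSeq's table (GRCm38.p6), which held 65 of the 74 members, and no matches of different motifs overlapped. A match is a description of letters, not of binding. Only these exact letters were searched, so other forms of a site are not counted. The ETS core was present in 36.9% of the members' promoters, against 19.9% of those of 6714 tested genes and 9.9% of all 27025 in the table. The YY1 core was present in 16.9%, against 5.5% and 3.2%, and the NRF1 core in 10.8%, against 4.5% and 2.1%. At least 1 of these was present in 36 of 65 members (55.4%), against 27.2% of tested genes. The CCAAT box (CCAAT, 38.5% against 42.4%) and the TATA box (TATAAA, 7.7% against 9.9%) were not more frequent than among tested genes, and the median number of CG pairs was 21 in both. Another gene started within 1000 bases in the opposite direction for 24 of 65 members (36.9%), against 18.1% of tested genes.

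Set against the direction of response, the NRF1 core was present in 4 of the 6 members that fell in the averaged comparison (Mrpl9, Mrpl10, Mrpl32 and Mrpl39), in 0 of the 10 that rose and are in the table, and in 3 of 49 not called (Mrpl17, Mrpl22 and Mrps18b). The ETS core was present in 0 of the 6 that fell, in 5 of the 10 that rose and in 19 of 49 not called. For the YY1 core these counts were 2 of 6, 3 of 10 and 6 of 49. This comparison was looked at after the calls were known, on few genes, and was not tested. Over all tested genes, of 299 with an NRF1 core 41 fell (13.7%) and 30 rose (10%), and of 6415 without it 849 fell (13.2%) and 858 rose (13.4%). The share that fell was thus similar with and without the core. The share that rose was lower with it, which also held for the YY1 core (10.4% with and 13.4% without) and the ETS core. Of 1334 with an ETS core 11.5% rose and 11.2% fell, and of 5380 without it 13.7% rose and 13.8% fell.

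The 150 bases before the start are shown for the 4 members that fell and hold the NRF1 core and for the 3 that rose and hold the ETS core within that stretch, 5′ to 3′ on the gene's strand, with the core in capitals. Those that fell come first. The core starts 27 bases before the start of Mrpl9, 135 before that of Mrpl10, 86 and 23 before that of Mrpl32 and 124 before that of Mrpl39.
Mrpl9 (chr3:94443186-94443335, plus strand): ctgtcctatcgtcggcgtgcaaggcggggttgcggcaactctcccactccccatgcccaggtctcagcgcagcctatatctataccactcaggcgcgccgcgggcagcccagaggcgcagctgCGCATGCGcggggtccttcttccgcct
Mrpl10 (chr11:97041432-97041581, plus strand): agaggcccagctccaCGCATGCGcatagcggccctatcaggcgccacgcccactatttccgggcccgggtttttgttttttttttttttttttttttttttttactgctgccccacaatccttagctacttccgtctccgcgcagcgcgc
Mrpl32 (chr13:14613038-14613187, minus strand): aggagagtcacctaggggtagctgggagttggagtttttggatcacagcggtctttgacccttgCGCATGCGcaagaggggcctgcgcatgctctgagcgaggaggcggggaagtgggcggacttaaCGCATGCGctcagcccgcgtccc
Mrpl39 (chr16:84735245-84735394, minus strand): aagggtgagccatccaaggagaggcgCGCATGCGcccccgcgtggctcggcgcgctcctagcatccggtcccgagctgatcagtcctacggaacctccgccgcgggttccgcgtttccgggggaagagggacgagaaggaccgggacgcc

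In the 3 that rose, the ETS core starts 37 bases before the start of Mrpl34, 90 before that of Mrpl51 and 26 before that of Mrps18a. The averaged calls of Mrpl34 and Mrps18a were each lost when any 1 of 9 arrays was left out, and the second probe set of Mrpl51 fell. Among those that fell, the averaged call of Mrpl10 was lost when any 1 of 3 arrays was left out.
Mrpl34 (chr8:71464776-71464925, plus strand): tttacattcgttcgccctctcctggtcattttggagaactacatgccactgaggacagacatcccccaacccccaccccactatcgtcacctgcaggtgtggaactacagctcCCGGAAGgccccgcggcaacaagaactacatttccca
Mrpl51 (chr6:125192050-125192199, plus strand): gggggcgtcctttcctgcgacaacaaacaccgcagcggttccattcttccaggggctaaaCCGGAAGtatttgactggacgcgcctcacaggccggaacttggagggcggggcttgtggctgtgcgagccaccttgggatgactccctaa
Mrps18a (chr17:46110854-46111003, plus strand): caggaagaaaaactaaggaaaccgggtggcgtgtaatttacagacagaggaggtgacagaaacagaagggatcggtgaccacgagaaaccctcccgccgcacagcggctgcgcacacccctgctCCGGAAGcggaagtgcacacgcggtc

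Members that share a start region with another gene were not always called with it, and no difference within a pair was tested. Mrps11 and Mrpl46 start 42 bases apart and run in opposite directions, and Mrps11 rose by 0.42 ± 0.12 where Mrpl46 differed by 0.08 ± 0.10 (adjusted p = 0.613). Mrps12 starts 147 bases from Sars2, the mitochondrial seryl-tRNA synthetase, which differed by -0.11 ± 0.15 (adjusted p = 0.634) where Mrps12 rose. Mrpl47 starts 308 bases from Ndufb5, a complex I subunit. Ndufb5 fell (-0.28 ± 0.06, adjusted p = 0.00095), and Mrpl47 differed by the same -0.28 ± 0.12 without passing (adjusted p = 0.0923). Mrpl49 starts 192 bases from Fau, which encodes a cytosolic ribosomal protein and rose by 0.32 ± 0.07 (adjusted p = 0.00151) where Mrpl49 differed by -0.24 ± 0.18. These pairs were chosen after their values were seen.

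Genes that work with the mitochondrial ribosome were taken from lists, and their counts are those of the averaged comparison. They move beside the marker and quality shifts given above, whose part was not tested. Their shares stand against the 13.4% of all genes that rose and the 13.1% that fell. Of 4 tested ribosomal proteins that carry other names, Dap3 (-0.36 ± 0.09, adjusted p = 0.00506) and Ptcd3 (-0.35 ± 0.09, adjusted p = 0.00617) of the small subunit fell, and Gadd45gip1 of the large subunit rose (0.44 ± 0.11, adjusted p = 0.00466). Of 9 translation factors and RNA-binding partners 4 fell (44.4%) and 0 rose, with a median of -0.36. They included the elongation factors Gfm1 (-0.41 ± 0.08, adjusted p = 0.000886) and Gfm2 (-0.45 ± 0.14, adjusted p = 0.016) and Lrpprc, which stabilises mitochondrial messenger RNA (-0.36 ± 0.10, adjusted p = 0.00996). Of 14 assembly and ribosomal RNA modification factors 2 fell (14.3%, near the share of all genes), Mterf3 (-0.75 ± 0.11, adjusted p = 1.98e-05) and Nsun4 (-0.39 ± 0.11, adjusted p = 0.0139). Of 8 mitochondrial aminoacyl-tRNA synthetases measured out of 17 listed, which charge transfer RNAs, 2 fell (25%), Iars2 (-0.36 ± 0.12, adjusted p = 0.0229) and Hars2 (-0.38 ± 0.13, adjusted p = 0.0391). All 8 had a negative averaged difference, as did 4275 of 8272 genes, and in females 2 of the 8 had a positive one. Of 9 genes for mitochondrial DNA replication and transcription 1 fell (11.1%, below the share of all genes), the transcription factor Tfb2m (-0.53 ± 0.11, adjusted p = 0.00105).

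Among 9 nuclear regulators of mitochondrial genes 3 fell (33.3%): Gabpa, which binds the ETS core (-0.69 ± 0.14, adjusted p = 0.000762), Ppargc1a, the coactivator PGC-1alpha (-0.45 ± 0.13, adjusted p = 0.0127), and Esrrg (-0.33 ± 0.11, adjusted p = 0.0363). Of 33 tested complex I subunits, the largest respiratory chain complex and a user of mitochondrially made proteins, 14 fell and 0 rose (42.4% lower), with a median of -0.15. Ndufs4 (-0.46 ± 0.06, adjusted p = 1.98e-05), Ndufs1 (-0.52 ± 0.08, adjusted p = 6.31e-05) and Ndufab1 (-0.38 ± 0.07, adjusted p = 0.000243) had the smallest p values. Of 42 tested proteins of the cytosolic ribosome 14 rose and 1 fell (33.3% higher), with a median of 0.16. Rpl35 (0.68 ± 0.09, adjusted p = 1.33e-05) and Rpsa (0.38 ± 0.07, adjusted p = 0.000383) rose, and Rpl3l, the muscle-specific form of Rpl3, fell (-0.90 ± 0.14, adjusted p = 5.49e-05). The members, with 16.2% higher, 8.11% lower and a median of -0.03, were not tested against these lists.

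**Figure D5:**
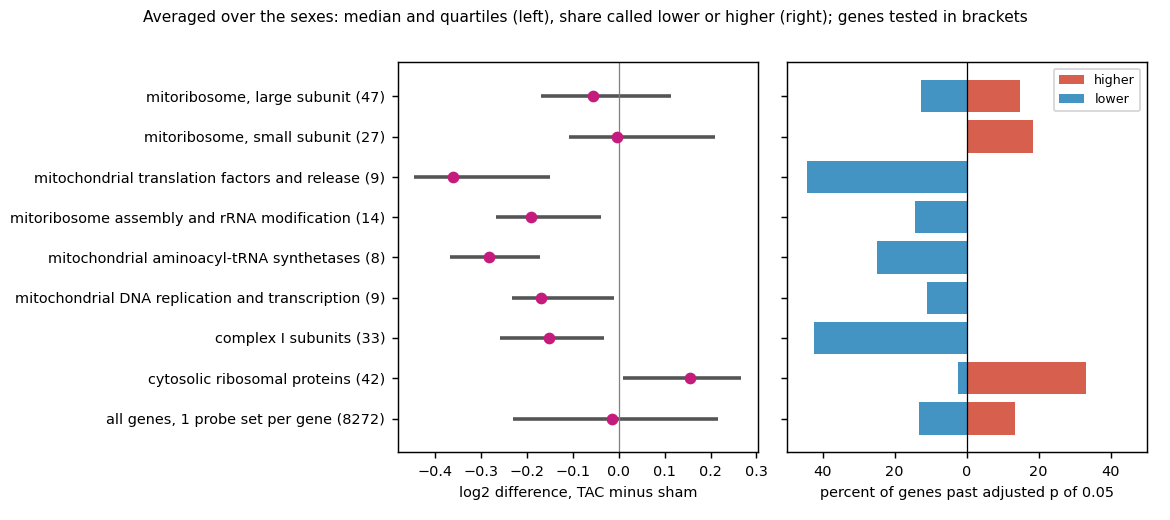
Left, median (point) and quartiles (line) of the log2 difference of TAC minus sham averaged over the sexes for both mitoribosomal subunits, 6 related lists and all genes with 1 probe set each; right, percent of each list past an adjusted p of 0.05, lower to the left and higher to the right. Members with Mrpl and Mrps symbols, drawn as large and small subunit, have medians near 0. The former have 14.9% higher and 12.8% lower and the latter 18.5% higher and 0% lower, proteins with other names such as Dap3 and Ptcd3 left out. Complex I subunits have 42.4% lower and cytosolic ribosomal proteins 33.3% higher.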

How the data were processed

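The authors deposited 1 table of signal intensity on a linear scale. The submitters' processing notes name GCOS, the array maker's software, and its version, role and settings are not given in the sources used here. The deposited intensities were found to be globally scaled, with 2%-trimmed means of 500.21 to 500.25 on all 16 arrays, and this was kept. The 64 control probe sets and the dimmest 40% of the others (limit: a signal of 130.8) were left out, which left 13576. Log2(signal + 16) was tested with limma 3.58.1 in R 4.3.3: 4 group means, 12 residual degrees of freedom, empirical Bayes with an intensity trend, 2-sided, Benjamini-Hochberg adjustment over all 13576, and differences on that scale. The fit was tested on simulated data. With 4 arrays a group, that number sets the precision.

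Probe sets were named by the platform annotation, 20380 with 1 symbol, 691 with several and 1555 with none. A gene is represented by its probe set with the highest mean log2 signal. Named with values were members called in a TAC comparison, those with the smallest p per subunit and for the sex comparisons, the brightest and dimmest, a fixed set, and up to 3 genes per related list. Further genes named for a second probe set, a promoter match, a shared start region or a call under 1 alternative were chosen after their values were seen. The members and lists were chosen with earlier results of these data known. Members with a bacterial counterpart are those numbered up to 36 (Mrpl) or 21 (Mrps). Alternatives were other scalings, pseudocounts, filters, array weights, no trend, only the groups compared, a replicate block, the 18S signal or the Gapdh ratio as a covariate, all probe sets, and each array left out. Promoters come from RefSeq (GRCm38.p6).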

Additional observations from a re-analysis of the deposited data

Results flagged for a closer look

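In 5 of 124 groups of 4 arrays, looked at for 31 named members, 1 array stood apart from the other 3, with a gap to the nearest above Dixon's 95% critical value for 4 samples. About 5% of groups do so by chance. Mrps34 read 4317 on female TAC 3, and 3151.5 to 3345.2 on the other female TAC arrays. Mrpl10 read 1995.9 on female sham 4 against 1295.4 to 1409.8. Mrpl32 read 1743.8 on male sham 3 against 1345.5 to 1397.6. Mrpl37 read 406.7 on female TAC 2 against 312.4 to 327.3. Mrps5 read 614.8 on female sham 1 against 379.9 to 403.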

How the results depend on the processing

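Of 206 repeats of the member counts and medians under other settings, 195 stayed within 1.5 times the count or within the spread between replicates (0.0482 for a median). The 11 others were all counts of members called in TAC against sham. Counts in the sex comparisons were 0 in the main fit and in every repeat. The limit of 0.0482 is wider than the medians themselves (-0.021 in males, -0.0143 in females and -0.0255 averaged), so a median could change sign and count as unmoved. The total of 195 therefore says little about the counts of called members. With the 18S signal as a covariate 2 members passed in males, 6 in females and 7 averaged, when 7.37%, 11.3% and 14.1% of all probe sets did. With the Gapdh ratio 2, 0 and 2 members passed, when 2.93%, 3.67% and 4.71% of all probe sets did. Sham and TAC did not overlap in the Gapdh ratio in either sex, so the fit with it can hardly tell operation and ratio apart. The cause of these lower counts was not tested. Leaving out each array gave 4 to 8 members in males, 6 to 9 in females and 14 to 18 averaged, with medians of -0.0442 to 0.023, -0.0448 to 0.0147 and -0.0363 to -0.0045. With a replicate block 6 members passed in females and 13 averaged. Whether the replicate numbers pair the arrays is not known. Correlations of same-numbered arrays were 0.04, 0.115 and -0.03 in males and 0.054, 0.044 and -0.012 in females. So few pairs cannot decide whether arrays of the same number belong together. Mrpl34 reversed with the Gapdh ratio, to -0.0618 in males and -0.1288 averaged. Under quantile normalization 14 members passed averaged, and the calls of Mrpl12, Mrpl34, Mrpl44 and Mrps18a were lost. Of the 18 averaged calls, 12 held without any single array, and 11 of these also in the other refits of the brightest probe set, both covariates aside. Second probe sets do not enter this count. Mrpl51, Mrpl50 and Mrps25 are among the 11, and their second probe sets, given above, did not share the call. Chosen after seeing the data, leaving out members on probe sets that may bind several transcripts gave 17 averaged calls, and using the first listed promoter of each gene gave 35 of 65 members with an NRF1, ETS or YY1 core. Signals near the filter limit of 130.8 limit what dim probe sets can show.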
